A study of Rattus norvegicus with 8 samples.

Results

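The transcription factors that set and hold the T-cell fate of thymocytes were followed in rat thymocytes that had been cultured with a glucocorticoid. The list held 10 genes, namely Tcf7, Lef1, Gata3, Bcl11b, Runx1, Runx3, Ets1, Myb, Tox and Zbtb16. A probe was taken for a factor where the gene name printed on the array, with the suffix "_predicted" removed, was that symbol. By this rule 9 of the 10 genes had a probe, of 35561 names that the array gives (accessions included where it has no symbol), and 13 of its 41012 probes belonged to them. No probe carried the name Myb. Of the 13 probes, 10 were well above background on all arrays of at least 1 group, and these belonged to 8 of the 9 genes.

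RNA was hybridized to 8 one-color Agilent arrays of the whole rat genome, whose probes are oligonucleotides of 60 bases. The 4 Control arrays held RNA of primary thymocytes cultured without hormone, and the 4 Dex arrays held RNA of thymocytes cultured for 6 hours with 100 nM dexamethasone, a synthetic glucocorticoid. All cells came from adrenalectomized male Sprague-Dawley rats, so the animals of both groups lacked the adrenal source of glucocorticoid. Each preparation pooled the thymi of 3 animals, and the labels do not say which arrays, if any, share a preparation, so p-values measure the spread between these arrays.

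T-cell progenitors enter the thymus without CD4 or CD8, respond to Notch signals, and lose their other fates step by step. Tcf7 and Gata3 act early in this commitment, Bcl11b completes it, and Runx, Ets1, Lef1 and Myb proteins carry the cells into the double positive stage, in which CD4 and CD8 are both present. Tox acts when double positive cells become CD4 cells, Runx3 when they become CD8 cells, and Zbtb16 marks innate-like T cells. Double positive thymocytes are the main population of the thymus and die readily when exposed to glucocorticoids.

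The number of probes that stood well above background was 26471 on Dex 1, 24908 on Dex 2 and 28665 on Control 1, and ran from 33148 to 34472 on the other 5 arrays. The 8 arrays lay on 3 slides, of which 1 held Control 1 and Dex 3, and the others held 3 arrays of a single group each. Except through Control 1 and Dex 3, a difference between slides therefore cannot be told apart from one between the groups. The median SD of a probe was 0.28 among Control arrays and 0.50 among Dex arrays, on the log2 scale. The glucocorticoid target genes Tsc22d3 and Fkbp5 rose in Dex by 3.59 and 1.73 on the log2 scale (limma, adjusted p = 0.000153 and 0.00133). Per1, also listed as such a target, had a log2 fold change of 0.73 and did not pass (limma adjusted p = 0.270). Of 9 measured markers of double positive thymocytes, all were well above background on all 8 arrays, Cd8a and Cd8b among them.

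None of the 9 measured factors passed limma's test with Benjamini-Hochberg adjustment over all probes, against 0.778% of all probes (319 of 41012). At an unadjusted p under 0.05, 3 factors were called, Gata3, Bcl11b and Runx1, all with a lower signal in Dex. Of all probes, 4.92% met that threshold with a lower signal in Dex. A signal to noise statistic, formed as the study's methods describe but read against the 70 assignments of the arrays in place of the permutations used there, called Bcl11b, Runx1 and Lef1 lower, against 3.2% of all probes. It is a lenient rule, which called 2784 probes in both directions. In 4 factors, Lef1, Gata3, Bcl11b and Runx1, all 4 Dex arrays lay below all 4 Control arrays, a pattern shown by 4.51% of all probes and by 6.19% of the probes well above background. No factor had all Dex arrays above all Control arrays. The brightest probe of each of the 9 genes, which stands for the gene throughout, had a lower mean in Dex for 6 genes and a higher mean for 3. Over all probes, 50% had a lower mean in Dex. Their log2 fold changes ranged from -0.87 to 0.51 with a median of -0.15, and the median over all probes was 0.0003. In a bulk sample, fewer cells of a type and less RNA per cell cannot be told apart, which holds for all these values.

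**Figure D1:**
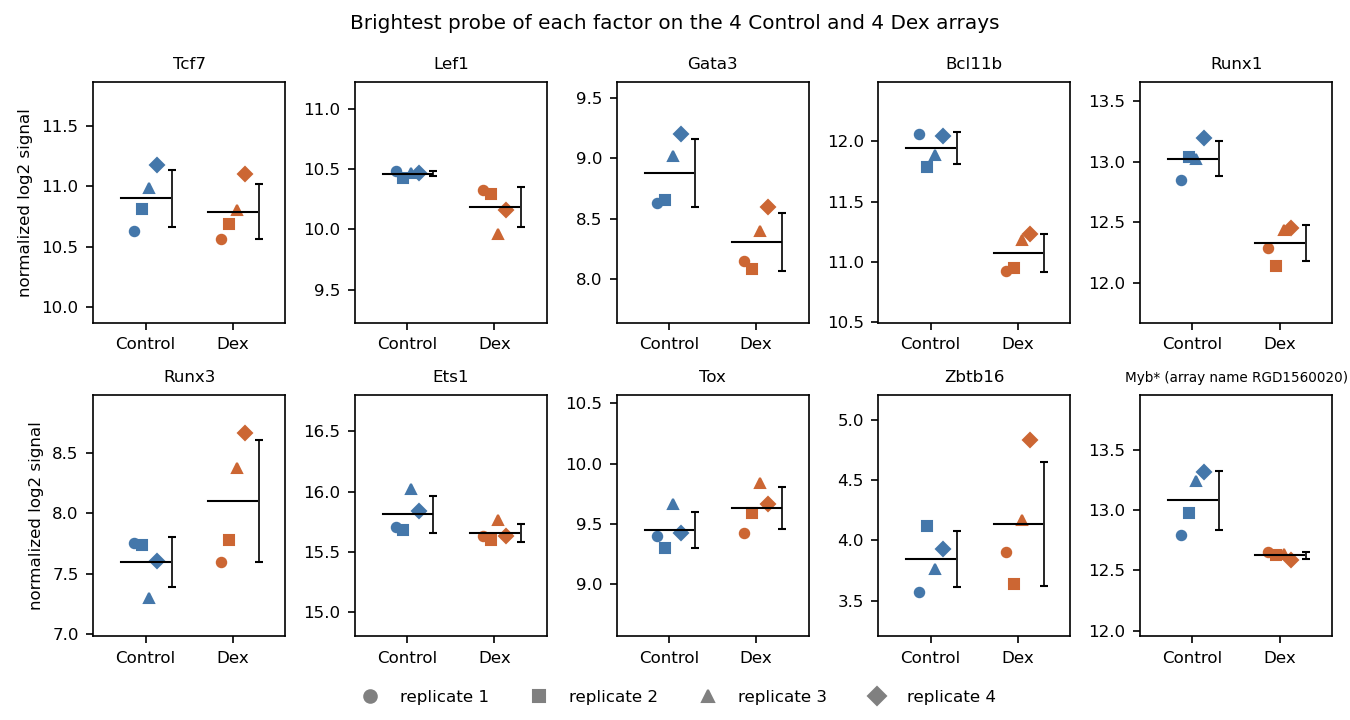
Normalized log2 signal of the brightest probe of each factor on the 4 Control and 4 Dex arrays, with a horizontal line at the group mean and a bar for the SD. Panels span equal heights but start at different levels. Lef1, Gata3, Bcl11b, Runx1 and the Myb probe show no overlap between groups, with Dex lower. The asterisk on Myb marks a probe that carries an older name of the gene.

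Bcl11b, a zinc finger repressor that seals T-cell commitment, had the largest difference. Its 2 probes lie 76.1 kb apart on chromosome 6, both on the minus strand, at chr6:132299617-132299676 (probe 1) and chr6:132375733-132375792 (probe 2) of build rn3. An annotation of that build was not used here, so the exon that each probe reads is not given. The middle 30 bases of both probes are shown because their readings went apart, in lower case since no part is singled out.
Bcl11b probe 1: acacttgctgactaatgatgtcaaaatcga
Bcl11b probe 2: catctactgtcacccacgaaaggcatctgt

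On probe 1 of Bcl11b, the Control arrays 1 to 4 read 12.06, 11.79, 11.88 and 12.04 on the log2 scale. The Dex arrays 1 to 4 read 10.92, 10.95, 11.18 and 11.23. The highest Dex array therefore lay below the lowest Control array. The mean was 11.94 ± 0.13 in Control and 11.07 ± 0.16 in Dex (SD, n = 4 each). The log2 fold change was thus -0.87 (SE 0.15, 95% confidence interval -1.22 to -0.52), or 0.547 times the Control signal. The unadjusted p of limma was 0.000442, and the p adjusted over all probes was 0.0546, which missed the threshold of 0.05. On the slide that held both groups, the difference of Dex 3 from Control 1 was -0.88 on the log2 scale. The call depended on the processing. With normexp background correction the adjusted p was 0.00391, and with dim probes left out 0.0220. With the slide as a random block, whose estimated correlation within slides was negative (-0.24), the adjusted p was 0.00751. With the replicate number as a block it was 0.181, with arrays scaled to the 75th percentile 0.183, and with the slide as a fixed block 0.771.

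Probe 2 of Bcl11b did not separate the groups. The Control arrays read 8.42, 8.42, 8.06 and 8.27, and the Dex arrays 8.42, 8.73, 8.01 and 8.60. The groups overlapped, with Dex 3 the lowest of all 8 arrays and Dex 2 the highest. Its log2 fold change was 0.15 (SE 0.20, 95% confidence interval -0.31 to 0.60, limma adjusted p = 0.853). On the slide that held both groups, probe 2 was also lower in Dex, with a log2 difference of -0.42. The log2 ratio of probe 1 to probe 2 within an array ranged from 3.37 to 3.82 in Control and from 2.22 to 3.17 in Dex, a difference of -1.02. In an exact two-sided permutation test over the 70 assignments of the arrays, p was 0.0286, the smallest that 4 against 4 arrays allow. After adjustment over the 5 pairs of probes or related genes compared in this way, p was 0.0714. These pairs were chosen after the values had been seen. As the pair was chosen for the difference between its probes and missed the threshold, the ratio is given as a description, and it does not show which probe follows the Bcl11b transcript.

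**Figure D2:**
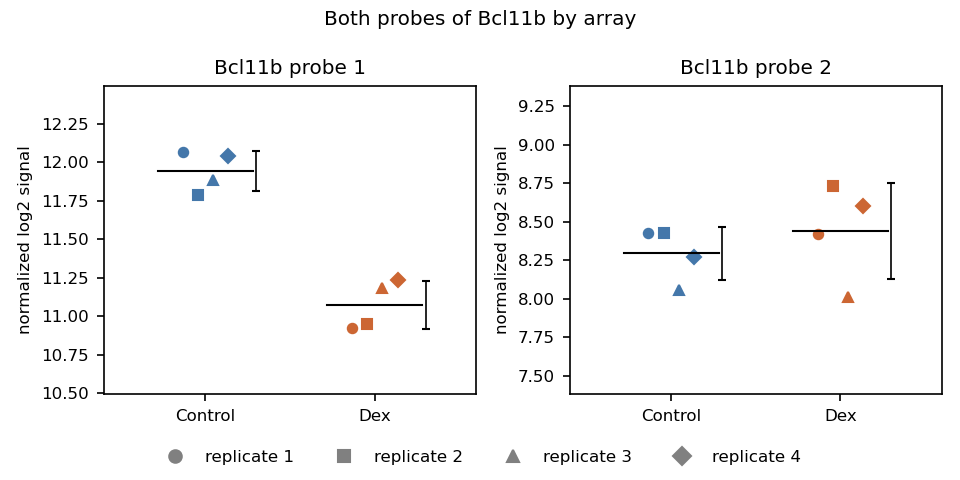
Normalized log2 signal of both Bcl11b probes on each array, Control against Dex, with the group mean as a line and the SD as a bar. Probe 1 separates the groups and probe 2 does not, and the panels cover equal heights at different levels.

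Runx1, the DNA-binding subunit of core binding factor that acts through early thymocyte development and silences Cd4, had the difference next in size. Its probe lies at chr11:32679834-32679893 of rn3 on the minus strand, and its middle 30 bases are shown to identify the transcript stretch that was read.
Runx1 probe: tgtgaatgcttctgatttagtaatgctgtg

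The Control arrays 1 to 4 read 12.85, 13.04, 13.03 and 13.20, and the Dex arrays 1 to 4 read 12.29, 12.14, 12.44 and 12.45. All Dex arrays lay below all Control arrays. The mean was 13.03 ± 0.14 in Control and 12.33 ± 0.15 in Dex (SD, n = 4 each). Its log2 fold change was -0.70 (SE 0.15, 95% confidence interval -1.05 to -0.34), or 0.616 times the Control signal, with an unadjusted limma p of 0.00182 and an adjusted p of 0.113. Within the slide that held both groups, the log2 difference was smaller, at -0.41. Runx1 passed the threshold under the same 3 alternatives as Bcl11b, with adjusted p-values of 0.0236 under normexp and 0.0127 with the slide as a random block, and a value just under the threshold with dim probes left out. It was 0.233 with the replicate number as a block, 0.401 with arrays scaled to the 75th percentile and 0.771 with the slide as a fixed block.

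Runx3, the paralog that directs the CD8 lineage, had the largest difference among the 3 factors with a higher mean in Dex. The Control arrays read 7.75, 7.74, 7.30 and 7.61, and the Dex arrays 7.59, 7.78, 8.38 and 8.67. Dex 3 and Dex 4 lay well above all Control arrays and Dex 2 just above them, whereas Dex 1 lay within the Control range. The mean difference was 0.51 on the log2 scale (SE 0.27, 95% confidence interval -0.11 to 1.12, limma adjusted p = 0.575). Dex 3 and Dex 4 also had the lowest 75th percentiles of the processed signal before normalization, 266 and 264, against 317 to 428 on the other arrays. The same arrays stood apart in the summed signals of markers of other cells. For 8 innate lymphocyte markers the sum was 4223 on Dex 3 and 5193 on Dex 4, above the Control range of 3520 to 4013, and 3046 on Dex 1 and 2637 on Dex 2, below it. Nkg7 contributed most to it on Dex 3 and Dex 4, at 11.45 and 11.80 on the log2 scale, against 10.15 to 10.83 in Control. Prf1 went the other way, at 10.15 and 10.35 on these arrays, below its Control range of 10.87 to 11.29. The 8 markers thus did not move together. For 10 stromal markers the sum was 1706 on Dex 3 and 1680 on Dex 4, against 919 and 823 on Dex 1 and Dex 2 and 880 to 1287 in Control. Col1a1 contributed most to it on Dex 3 and Dex 4, at 9.89 and 10.05 on the log2 scale, against 8.48 to 8.87 in Control. Col1a2 read 8.77 and 7.99 on these arrays, not above its Control range of 8.13 to 9.25. The part of these differences in the Runx3 reading was not tested. The log2 ratio of the Runx1 probe to the Runx3 probe within an array ran from 5.10 to 5.73 in Control and from 3.79 to 4.69 in Dex. The difference in this ratio was -1.20 (exact two-sided permutation test, p = 0.0286, adjusted over the 5 pairs 0.0714).

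Gata3, a zinc finger factor needed from the earliest T-cell progenitors and again in CD4 cells, read 8.63, 8.66, 9.02 and 9.20 on the Control arrays 1 to 4. The Dex arrays 1 to 4 read 8.15, 8.08, 8.40 and 8.60. The groups did not overlap, although the gap between the lowest Control array and the highest Dex array was narrow. The mean was 8.88 ± 0.28 in Control and 8.31 ± 0.24 in Dex (SD, n = 4 each). Each Dex array lay below the Control array of the same replicate number, by log2 differences of -0.48, -0.58, -0.62 and -0.61 for replicates 1 to 4. Gata3 thus had a log2 fold change of -0.57 (SE 0.20, 95% confidence interval -1.04 to -0.11), with an unadjusted limma p of 0.0220 and an adjusted p of 0.351. With the replicate number as a block, the SE was 0.14 and the adjusted p 0.271. On the slide that held both groups, the log2 difference was smaller, at -0.23.

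Tcf7 and Lef1 are HMG box factors that bind the same motif, Tcf7 from the first Notch response onward and Lef1 from the later double negative stages. For Lef1 the Control arrays read 10.48, 10.43, 10.47 and 10.47, and the Dex arrays 10.32, 10.29, 9.96 and 10.16. The Control arrays lay very close together, with an SD of 0.02, and all Dex arrays lay below them. The log2 fold change of Lef1 was -0.28 (SE 0.14, 95% confidence interval -0.61 to 0.06, limma adjusted p = 0.574). Limma draws each probe's variance toward that of all probes, whereas the signal to noise statistic, which called Lef1, uses the probe's own SDs. Tcf7 read 10.63, 10.81, 10.99 and 11.18 in Control and 10.57, 10.69, 10.80 and 11.11 in Dex, so that its groups overlapped almost throughout. The log2 fold change of Tcf7 was -0.11 (SE 0.19, 95% confidence interval -0.55 to 0.33, limma adjusted p = 0.886), an interval that leaves room for a moderate difference in either direction. The log2 ratio of Lef1 to Tcf7 within an array differed between the groups by -0.17 (exact two-sided permutation test, p = 0.457, adjusted over the 5 pairs 0.571).

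Ets1, a winged helix-turn-helix factor needed for the development and survival of T cells, read 15.70, 15.68, 16.02 and 15.84 in Control. In Dex it read 15.63, 15.60, 15.77 and 15.63. All but Dex 3 lay below every Control array. The mean difference was -0.15 on the log2 scale (SE 0.15, 95% confidence interval -0.49 to 0.18, limma adjusted p = 0.777). No non-control spot of these arrays was saturated.

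Myb, which supports the survival of double positive cells during Tcra rearrangement, had no probe under its own name. The probe that the array names RGD1560020_predicted could be tied to it, since the RefSeq gene table lists RGD1560020 as an older name of Myb. The link lies outside the rule, and the probe is not counted among the 9 genes. It lies at chr1:16520454-16520513 of rn3 on the minus strand, and its middle 30 bases are shown because the name alone does not identify the gene.
RGD1560020 probe: atgacacccgtatcagaagatgaagacaac

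This probe read 12.79, 12.98, 13.24 and 13.32 in Control and 12.66, 12.63, 12.64 and 12.58 in Dex. All Dex arrays lay below all Control arrays, and the Dex arrays lay closer together (SD 0.03) than the Control arrays (SD 0.24). Its log2 fold change was -0.45 (SE 0.16, 95% confidence interval -0.83 to -0.08), with an unadjusted limma p of 0.0238 and an adjusted p of 0.363. On the slide that held both groups, the log2 difference was -0.15, since Control 1 was the lowest Control array. Over the alternatives the log2 fold change stayed between -0.55 and -0.15, with adjusted p-values from 0.0648 to 0.899.

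Tox, an HMG box factor of positive selection and CD4 lineage development, had 3 probes on chromosome 5, of which 2 were well above background on all arrays. Probe 1 read 9.40, 9.30, 9.66 and 9.43 in Control and 9.43, 9.60, 9.84 and 9.67 in Dex. The groups overlapped, and the log2 fold change was 0.18 (SE 0.16, 95% confidence interval -0.18 to 0.55, limma adjusted p = 0.754). Probe 2, which lies 33.5 kb away, read 9.28, 8.76, 8.83 and 8.79 in Control and 9.13, 9.47, 8.44 and 8.35 in Dex. Dex 1 and Dex 2 were high and Dex 3 and Dex 4 low on this probe, and Control 1 stood above the other Control arrays. Its log2 fold change was -0.06 (SE 0.29, limma adjusted p = 0.959). Probe 3 was above background on 1 of 4 Control and 1 of 4 Dex arrays, and its log2 fold change was 0.43 (SE 0.72, limma adjusted p = 0.883). The log2 ratio of probe 1 to probe 2 differed between the groups by 0.25 (exact two-sided permutation test, p = 0.457, adjusted over the 5 pairs 0.571).

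Zbtb16 encodes PLZF, the factor of innate-like T cells, and was the gene with no probe well above background on all arrays of a group. Both of its probes, 156.7 kb apart on chromosome 8, were above background on 3 of 4 Control and 2 of 4 Dex arrays. Probe 1 read 3.57, 4.12, 3.76 and 3.92 in Control and 3.90, 3.63, 4.17 and 4.83 in Dex. The groups overlapped, with Dex 4 highest and Control 1 lowest. The log2 fold change was 0.29 (SE 0.27, 95% confidence interval -0.34 to 0.92, limma adjusted p = 0.773) on probe 1 and 0.21 (SE 0.49, adjusted p = 0.916) on probe 2. Signals this close to background allow no firm statement in either direction. The log2 ratio of the probes differed by 0.08 between the groups (exact two-sided permutation test, p = 1).

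**Figure D3:**
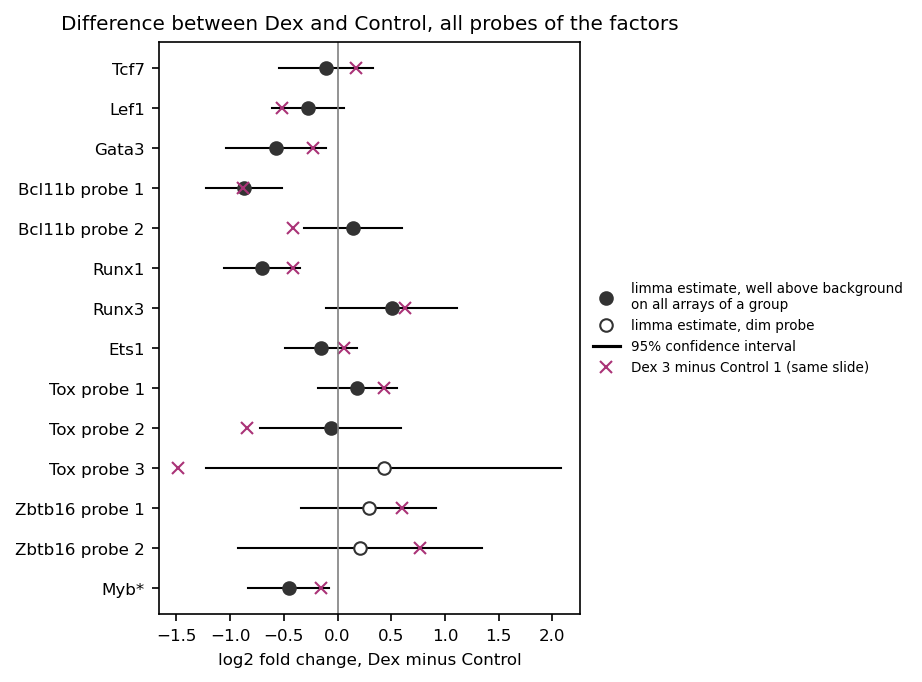
Log2 fold change of every probe of the factors, Dex minus Control, with its 95% confidence interval from limma. Crosses give Dex 3 minus Control 1, the pair of arrays that shared a slide, and open circles mark dim probes. The intervals of Gata3, Bcl11b probe 1, Runx1 and the Myb probe lie below 0, and those of the other probes include 0.

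Arrays with the same replicate number were also compared one with another. Tcf7, Lef1, Gata3, Bcl11b, Runx1 and Ets1 were lower in the Dex array than in the Control array of the same number in all 4 pairs, which makes 6 of 9 genes, against 11.4% of all probes. Tox (probe 1) went the other way in all 4 pairs, with log2 differences of 0.02, 0.29, 0.18 and 0.24, as did 13.1% of all probes. For Tcf7 these differences were small, from -0.06 to -0.19 on the log2 scale. On the slide with both groups Tcf7 and Ets1 turned the other way, with Dex 3 above Control 1 by 0.17 and 0.06.

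The genes whose profile was nearest to that of Bcl11b probe 1 were Zfp36l1, Dut and Zbed4. Likeness was the root mean square difference of log2 values over the 8 arrays, after each probe's own mean had been taken off, among 12175 bright probes of other genes. It came to 0.0945 for Zfp36l1, which encodes an mRNA decay factor, 0.103 for Dut, the dUTPase, and 0.126 for Zbed4. Zfp36l1 fell by 0.88 on the log2 scale in Dex (limma adjusted p = 0.0364, or 0.155 when blocked by replicate number). The log2 fold changes of Dut and Zbed4 were -0.71 and -0.72 (adjusted p = 0.106 and 0.0791). Likeness was taken over both groups, so a similar difference between them follows from the choice of these genes. Their p-values are therefore no separate evidence.

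The cofactors of these proteins were then examined, that is core binding factor beta, beta-catenin, the Groucho family, the NuRD complex, and acetylating and deacetylating enzymes. Of 21 listed, 20 had a probe, and none passed limma's adjusted test. At an unadjusted p under 0.05, 4 of 20 were lower and 0 higher, against 4.92% and 5.63% of all probes. By signal to noise, 4 cofactors were called lower and 1 higher, against 3.2% and 3.59% of all probes. A lower mean in Dex was found in 15 of 20, against 50% of all probes. The median over the cofactors was -0.10 on the log2 scale. The largest differences were those of Aes and Hdac1. Aes, a short Groucho-related protein that binds Tcf and Lef factors, went from 13.18 ± 0.20 in Control to 12.54 ± 0.13 in Dex (SD, n = 4 each). Its log2 fold change was -0.64 (SE 0.16, limma adjusted p = 0.166). Hdac1, the deacetylase of the NuRD complex that Bcl11b recruits, went from 12.48 ± 0.31 to 11.87 ± 0.06, a log2 fold change of -0.62 (SE 0.19, adjusted p = 0.260). Groups did not overlap for either gene. Cbfb, the partner that Runx1 and Runx3 need for stable DNA binding, is named outside the rule for its role. It went from 10.94 ± 0.16 to 10.47 ± 0.29 with overlapping groups, a log2 fold change of -0.47 (SE 0.19, adjusted p = 0.431).

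Of 12 paralogs of the factors, 9 had a probe and 5 were bright. None passed the adjusted test, the signal to noise statistic called 0, and at an unadjusted p under 0.05 the counts were 1 higher and 2 lower, against 5.63% and 4.92% of all probes. The median log2 fold change was 0.17. The largest fitted differences were in dim probes and are no measured folds. Mybl1, a germ cell relative of Myb, was above background on 3 of 4 Control arrays and no Dex array, and its Control mean of 2.88 lay too close to background for a fold to be given (limma adjusted p = 0.383). Tox3 had a log2 fold change of 1.16 (SE 1.62, adjusted p = 0.857), which rested on Dex 3 alone. That array read 9.14, against 1.30, 1.33 and 2.62 on the other Dex arrays and 2.01 to 2.82 in Control, and without it the value turned to -0.69.

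Of 22 other transcription factors of thymocytes, 20 had a probe, and 1 passed the adjusted test, which called 0.778% of all probes. At an unadjusted p under 0.05, 1 was higher and 1 lower (5.63% and 4.92% of all probes), and the counts by signal to noise were the same (3.59% and 3.2%). Patz1, a BTB zinc finger protein also known as MAZR that represses Cd8 genes in double negative cells and appears on the array as Zfp278, rose in Dex. Its Control arrays 1 to 4 read 7.84, 7.96, 8.14 and 8.18, and its Dex arrays 1 to 4 read 9.73, 9.89, 9.41 and 9.52. Its log2 fold change was 1.61 (SE 0.17, adjusted p = 0.00630, or 0.0908 when blocked by replicate number), and Dex 3 exceeded Control 1 on the shared slide by 1.57. Within this list 14 of 20 genes had a lower mean in Dex, against 50% of all probes, and the median log2 fold change was -0.12.

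Of 12 factors of progenitors and of other blood lineages, which are normally shut off by T-cell commitment, 11 had a probe and none passed the adjusted test. At an unadjusted p under 0.05, 1 was higher and 2 were lower. The shares of all probes were 5.63% and 4.92%. By signal to noise, 1 was called in each direction, against 3.59% of all probes higher and 3.2% lower. The median log2 fold change was -0.15, and 4 of 11 had a higher mean in Dex. Cebpa, the myeloid factor, had the largest difference, from 4.47 ± 0.55 in Control to 6.79 ± 1.05 in Dex (SD, n = 4 each). The groups did not overlap, and the difference was 2.32 on the log2 scale (SE 0.52, limma adjusted p = 0.120). Id1, an inhibitor of E proteins, went from 8.19 ± 0.32 to 7.17 ± 0.74, a log2 fold change of -1.02 (SE 0.37, adjusted p = 0.363).

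Among 20 genes that these factors are known to control in thymocytes, 18 had a probe, 1 rose and 1 fell by the adjusted test, which called 0.778% of all probes. At an unadjusted p under 0.05, 5 targets were lower and 2 higher, against 4.92% and 5.63% of all probes. By signal to noise, 3 targets were called lower and 2 higher, against 3.2% and 3.59%. Il7r, the interleukin 7 receptor chain that is low in double positive cells, read 5.08, 4.90, 5.06 and 5.18 in Control and 7.20, 7.08, 6.21 and 6.21 in Dex. It rose by 1.62 on the log2 scale (SE 0.27, adjusted p = 0.0410, or 0.160 when blocked by replicate number). Bcl2l1, which encodes the survival protein Bcl-xL, read 12.70, 12.92, 12.92 and 12.84 in Control and 11.91, 11.91, 11.60 and 11.79 in Dex. It fell by 1.04 on the log2 scale (SE 0.15, adjusted p = 0.0232, or 0.148 when blocked by replicate number). The array holds 4 probes of Bcl2l1, of which the brightest is given here. Both genes separated the groups without overlap. Of the 18 genes, 13 had a lower mean in Dex, against 50% of all probes, and the median log2 fold change was -0.17.

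**Figure D4:**
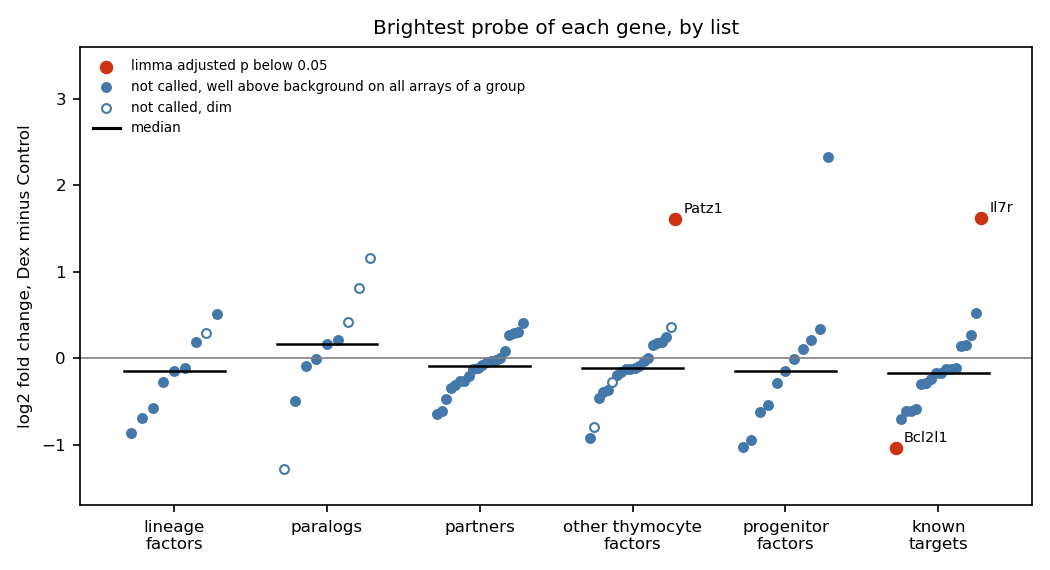
Log2 fold change, Dex minus Control, of the brightest probe of each gene in 6 lists, ordered by value within a list, with a line at the median. Red points passed limma's adjusted test, and open circles are dim probes. Patz1, Il7r and Bcl2l1 are the genes that passed in the fit without a block, and none of the lineage factors is among them.

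Markers of other cells were read beside these values. The summed signal of the double positive markers ranged from 57526 to 70659 in Control and from 54076 to 56973 in Dex when Cd8b, for which Control 1 had no value, was left out. This order rested on leaving out Cd8b, whose 3 measured Control arrays read 16.19, 15.85 and 15.81 and whose Dex arrays read 16.51, 16.42, 16.49 and 16.43. With Cd8b, on the 7 arrays that had a value, the sum ranged from 116466 to 145209 in Control and from 142971 to 150135 in Dex. None of the 9 measured markers passed the adjusted test, whereas 2 were lower and 1 higher at an unadjusted p under 0.05, against 4.92% and 5.63% of all probes. By signal to noise, 1 marker was called in each direction, against 3.2% of all probes lower and 3.59% higher. The sum for the lineage factors, to which the bright Ets1 probe contributes most, ranged from 68843 to 83444 in Control and from 60213 to 68003 in Dex, without overlap. Ets1 itself overlapped between the groups. The cofactor sum did not overlap either, at 69477 to 74381 in Control and 57381 to 60586 in Dex. Of 9 macrophage markers, limma and the signal to noise statistic called 0, 2 were higher at an unadjusted p under 0.05 (5.63% of all probes), and the summed signal ranged from 4454 to 6160 in Control and from 4294 to 8766 in Dex. Of 10 stromal markers, 9 had a higher mean in Dex, where 50% of all probes had a lower one. At an unadjusted p under 0.05, 2 were higher and 0 lower (5.63% and 4.92% of all probes), with the same counts by signal to noise (3.59% and 3.2%). The unadjusted calls were Pecam1 and Pdgfrb. Pdgfrb, a receptor of pericytes and fibroblasts, is named outside the rule, and its log2 difference was 1.72 (adjusted p = 0.160) on a probe above background on 2 of 4 Control and 3 of 4 Dex arrays. Pecam1, which blood vessel and myeloid cells express, rose by 1.36 on the log2 scale (SE 0.19, adjusted p = 0.0208, or 0.108 when blocked by replicate number). The stromal sum, also given with Runx3, was above all Control arrays on Dex 3 and Dex 4 only. The sums of 4 B-cell and 3 erythroid markers also overlapped between the groups, as did the innate lymphocyte sum given with Runx3, for which Dex 1 and Dex 2 lay below and Dex 3 and Dex 4 above all Control arrays. Of the defining markers, Dcn of stromal cells was not above background on any array. The part of cell composition in the readings of the factors was not tested.

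Promoter sequence was available for 5 of the factors, Tcf7, Lef1, Gata3, Runx1 and Runx3, the last with 2 start sites, from RefSeq on build GRCr8. The 250 bases before each start were searched on both strands for core motifs of the factors themselves and of the glucocorticoid receptor. The windows of Gata3 and Runx1 are shown because both factors separated the groups and both hold matches, which are in capitals. In Gata3 (chr17:73553298-73553547, plus strand) these are TTCCGG, the ETS core CCGGAA on the other strand, and CAGTT, the MYB core AACTG on the other strand. In Runx1 (chr11:45421326-45421575, minus strand) they are CTTTGA, the TCF and LEF core, and AACTG.
Gata3 promoter: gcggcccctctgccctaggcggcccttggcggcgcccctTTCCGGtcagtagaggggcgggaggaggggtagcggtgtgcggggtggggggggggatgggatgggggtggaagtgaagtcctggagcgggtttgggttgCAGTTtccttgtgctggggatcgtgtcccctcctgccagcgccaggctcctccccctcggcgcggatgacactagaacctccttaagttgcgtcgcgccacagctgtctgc
Runx1 promoter: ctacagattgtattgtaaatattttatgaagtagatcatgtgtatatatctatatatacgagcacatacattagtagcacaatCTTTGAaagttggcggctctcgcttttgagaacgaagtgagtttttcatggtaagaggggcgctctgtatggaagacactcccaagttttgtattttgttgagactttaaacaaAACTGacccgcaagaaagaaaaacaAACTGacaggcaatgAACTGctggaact

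The AACTG motif occurred 3 times in the Runx1 window, starting 53, 28 and 13 bases before the start, and in 40.2% of the 33469 promoter windows of the table. It also lay in the windows of Gata3 and Tcf7. CTTTGA was found in Runx1 alone among the 6 windows and in 13.9% of all windows, and CCGGAA in Gata3 alone and in 12.6% of all. TGTGGT, the RUNX core, lay in 1 of the windows of Runx3 and in 14.5% of all. AGAACA, a glucocorticoid receptor half-site, was in none of the 6 windows and in 17.5% of all. A match shows only that the letters are present, and no match shows only that they are absent from the window.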

How the data were processed

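Agilent Feature Extraction (version 9.5.3.1) intensities of 43379 non-control spots per array, as deposited by the authors, are background-subtracted and not normalized between arrays. The deposited flags of 0 or 1 (unit other) mark saturated spots, outliers, and spots well above background. A deposited table of log2 values, quantile normalized by the authors, served as an alternative. Outlier spots were left out, which left 16 missing values, and the intensities were log2-transformed, quantile normalized and summarized by median polish for 41012 probes. Probe positions refer to build rn3, per the file headers.

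limma (version 3.58.1, R version 4.3.3) compared the 4 Dex with the 4 Control arrays, two-sided and without a block, with p-values adjusted over all probes after Benjamini and Hochberg (threshold 0.05). The design text gives 3 biological replicates, but the labels name 4 arrays per group, and all were used. The brightest probe stands for a gene. The genes named are the listed factors, the hormone targets, and the 3 genes nearest to Bcl11b. In the lists of paralogs, cofactors, other thymocyte factors, progenitor factors and known targets, those that passed are named. Where none passed, the 2 whose absolute log2 fold change was largest are named. Of the cell markers only Pecam1 passed, and other markers are named outside this rule. The factors and lists were chosen with earlier results of these data known. The signal to noise statistic was called at a nominal p of 0.01 (one-tailed) and a fold change of 1.2, over the 70 assignments of the arrays pooled over probes, since how the authors drew their permutations is not given in detail in the sources used here. The alternatives were scaling to the 75th percentile, normexp (offset 50), dim probes left out, the replicate number or the slide as a block, the deposited values, other probes, and each array left out. Deviations of arrays with the same number correlated at 0.397, 0.129, 0.550 and 0.184, all above 0.1. Arrays of equal number were therefore also compared as pairs, with the replicate number as a block in an alternative fit. The main fit did not pair them, since the methods use no block. The correlations did not always single out the equal numbers. Control 1 correlated more with Dex 2 (0.401) and Control 2 more with Dex 1 (0.188) than with the array of its own number. Control 3 reached 0.392 with Dex 4. The limma fit was tested on simulated data. The number of arrays limits the precision.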

Additional observations from a re-analysis of the deposited data

Results flagged for a closer look

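On probe 2 of Tox, Control 1 stood apart from the other Control arrays. Its log2 signal was 9.28, against 8.76 to 8.83 on the others, so that its gap to the nearest array made up 0.868 of the range of the group. This exceeds the 95% limit of Dixon's test for 4 arrays. It was the single case among the 26 groups of 4 arrays examined (13 probes in each of the groups), and chance gives about 1 in 20.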

How the results depend on the processing

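Across all probes, 319 were called by limma, 166 with scaling to the 75th percentile, 915 with normexp, 562 with dim probes left out, 81 with the replicate block, 1 with the slide as a fixed block, 1838 with the slide as a random block (estimated correlation within slides -0.24) and 2784 by the signal to noise statistic. Leaving out 1 array gave 96 (without Control 4) to 249 (without Dex 3). Of the 9 measured factors, 0 were called by limma (3 at an unadjusted p under 0.05), also with the replicate block, which pairs arrays of the same number, with scaling to the 75th percentile, with the slide as a fixed block, with the deposited values and without any 1 array (0 to 0). The replicate block kept the calls of Tsc22d3 and Fkbp5, and not those of Patz1, Il7r, Bcl2l1, Pecam1 and Zfp36l1. Normexp, dim probes left out and the slide as a random block each called 2, Bcl11b and Runx1, and the signal to noise statistic 3. With dim probes left out fewer probes were tested (28476). For the other settings the cause was not tested. The direction turned in Tcf7 (0.17) and Ets1 (0.064) with the slide as a fixed block, which rests on Control 1 and Dex 3 alone and gave -0.42 on the second probe of Bcl11b and -0.23 for Gata3. The same block gave log2 fold changes of -0.52 for Lef1, 0.44 for Tox and 0.60 for Zbtb16. Zbtb16 came to 0.030 with scaling to the 75th percentile and 0.065 with normexp. The direction also differed on the second probes of Bcl11b (0.15) and Tox (-0.064). Without any 1 array, the log2 fold change ranged from -0.92 to -0.82 for Bcl11b, -0.76 to -0.63 for Runx1, -0.67 to -0.46 for Gata3 and -0.32 to -0.20 for Lef1. The others moved by over 1.5 times. Runx3 ranged from 0.32 (without Dex 4) to 0.68, Zbtb16 from 0.058 (without Dex 4) to 0.46 (without Dex 2), Tcf7 from -0.22 (without Dex 4) to -0.018 (without Control 4), Ets1 from -0.20 to -0.084 (without Control 3) and Tox from 0.11 (without Dex 3) to 0.25. By alternatives chosen after seeing the data, the 4 factors with all Dex below all Control arrays became 3 with scaling to the 75th percentile, 4 with normexp or the deposited values, and 5 without the slide that held both groups, where 8.35% of all probes met the pattern with 3 arrays each.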
